A study of Caenorhabditis elegans with 12 samples.

Results

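mir-71 is the Caenorhabditis elegans microRNA gene that the mutants of this study lack, and its hairpin gives 2 measured products, the guide strand cel-miR-71-5p and the passenger strand cel-miR-71-3p, called miR-71-5p and miR-71-3p from here on. They were chosen by name and are 2 of the 213 mature microRNAs in the table of normalised reads. Small RNA was sequenced from whole adult worms in 4 groups of 3 libraries: strain MT12993, which carries the deletion allele mir-71(n4115), at day 5 and at day 0 of adulthood, and the wild-type strain N2 at day 5 and at day 0. All 4 groups were grown at 20 °C and moved, shortly after the last moult, to plates with 0.1 mg/mL 5-fluorodeoxyuridine, a blocker of DNA synthesis that keeps offspring from developing. The submitters describe the libraries as biological triplicates, but the labels do not say whether they came from separate cultures, so the tests measure the spread between these libraries. The mutants are a single strain with a single allele.

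A microRNA is cut from a hairpin RNA, and one strand of the short duplex, the guide, is loaded into an Argonaute protein and pairs with messenger RNAs to lower their output. The other strand, the passenger, is mostly degraded. miR-71 is present in many tissues of the worm, neurons and intestine among them. Worms without mir-71 live shorter lives, and its effect on lifespan has been placed in the nervous system and tied to the insulin-signalling transcription factor DAF-16. It also acts in the response to stress, in the survival of starved larvae and in the left-right asymmetry of the AWC olfactory neurons.

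In the Ensembl annotation of WBcel235, the build named in the submitters' processing notes, the mir-71 hairpin spans 94 bases of the minus strand of chromosome I, from 9379927 to 9380020. miR-71-5p is annotated at 9379983 to 9380005 and is 23 bases long. miR-71-3p is annotated at 9379948 to 9379968 and is 21 bases long. The whole hairpin lies in an intron of ppfr-1 that runs from 9372068 to 9382471, and ppfr-1 is transcribed from the same strand. A non-coding RNA gene, F16A11.6, overlaps 75 bases of the hairpin on the opposite strand. The sources used here do not say whether reads were counted by strand, so reads of that gene within the mature products could not be told apart from those of mir-71.

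The number of reads summed over the 213 microRNAs of each library was obtained from the value that 1 read takes in the table and ran from 917170 to 4070663. The library medians of the normalised reads ran from 77.1 to 290, so that libraries still differed in overall level after the authors' scaling. Levels are therefore also given as RPM, the reads per 1000000 reads assigned to the 213 microRNAs, which does not depend on that scaling. miR-44-3p and miR-45-3p had the same mean and SD in each of the 4 groups, so the same reads appear to be entered under both names. Were they entered under a single name, the sums would be smaller and the shares and RPM higher. The intervals given below do not cover this. The markers chosen for muscle, intestine, glia, neurons and the germline and embryo were all measured in these whole worms, and 0 of them were at 0 in all 6 N2 libraries.

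miR-71-5p was among the most abundant microRNAs of wild-type worms. In N2 at day 5 its 3 libraries held 142695, 90221 and 110683 normalised reads, and at day 0 they held 173431, 155783 and 123352. The day 5 and day 0 values overlapped. It made up 6.71% of the microRNA reads in replicate 1 of N2 at day 5 (95% exact Clopper-Pearson interval 6.67 to 6.75), 6.75% in replicate 2 (6.72 to 6.78) and 5.45% in replicate 3 (5.42 to 5.48). In N2 at day 0 the shares were 7.40% in replicate 1 (7.37 to 7.44), 9.80% in replicate 2 (9.75 to 9.85) and 7.86% in replicate 3 (7.80 to 7.91). These intervals cover counting error only, since reads without molecular identifiers are not independent molecules, and the libraries differed by more than the intervals are wide.

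By mean level over the 6 N2 libraries miR-71-5p stood in place 3 of 213, and within single libraries it stood in place 4, 2 and 2 at day 5 and in place 3, 1 and 3 at day 0. Its place rests on reads per microRNA, and library preparation favours some small RNAs over others, so this is an order of reads and not of molecules. At day 5 miR-71-5p averaged 114533 ± 26448 normalised reads in N2, against 329999 ± 151061 for miR-58-3p, a relative of fly bantam, which was higher in 3 of the 3 libraries (SD, n = 3 each). The other neighbours in the order were closer at that age. miR-48-5p of the let-7 family averaged 116141 ± 46194, miR-82-3p and miR-80-3p, both relatives of miR-58, averaged 104119 ± 44424 and 97692 ± 18307, and miR-70-3p averaged 101649 ± 40839. Each of these 4 means lay within 1 SD of the mean of miR-71-5p. Within libraries, miR-80-3p and miR-70-3p were lower than miR-71-5p in each of the 3. miR-48-5p and miR-82-3p were each higher than it in 1 of the 3, so their order against miR-71-5p is not fixed by these libraries.

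At day 0 miR-71-5p averaged 150855 ± 25400 normalised reads in N2, against 205735 ± 79295 for miR-58-3p and 192022 ± 98518 for miR-70-3p (SD, n = 3 each). Both stood above it in 2 of the 3 libraries and within 1 SD of it. miR-82-3p, at 112765 ± 48083, also lay within 1 SD, though it was lower than miR-71-5p in each of the 3 libraries. miR-80-3p at 114578 ± 19545, miR-1-3p of muscle at 104537 ± 20870 and miR-48-5p at 85029 ± 6938 lay further below and were lower than miR-71-5p in each of the 3 libraries.

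**Figure D1:**
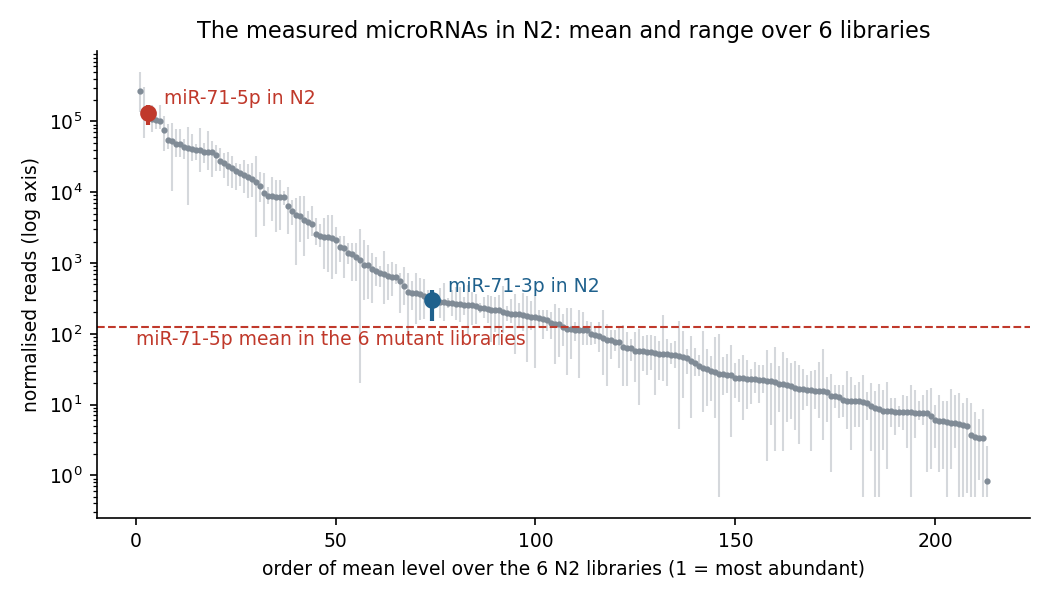
Mean normalised reads (log axis, dots) and range over the 6 N2 libraries (vertical lines, drawn down to 0.5 where the lowest library is lower or at 0) of the 213 microRNAs, in the order of their means. miR-71-5p stands in place 3 and miR-71-3p in place 74, and the dashed line marks the mean of 127 normalised reads that miR-71-5p had in the 6 mutant libraries.

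The passenger strand was far scarcer. miR-71-3p had 202, 276 and 419 normalised reads in N2 at day 5 and 386, 355 and 153 at day 0. The groups overlapped, and the lowest and the highest of the 6 values both came from replicate 3. By mean level it stood in place 74 of 213, between miR-76-3p with a mean of 334 and miR-78 with a mean of 295 over the 6 libraries, and both of those were higher than miR-71-3p in 4 of the 6 libraries.

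The guide far outnumbered the passenger in every N2 library. Replicates 1 to 3 of N2 had 706, 327 and 264 reads of miR-71-5p for each read of miR-71-3p at day 5, and 450, 439 and 805 at day 0. Over the 6 N2 libraries 761650 reads of the guide and 1865 of the passenger were counted. Among the 62 microRNA genes with both arms measured, the less abundant arm took 0.233% of the reads of mir-71 and between 0.00214% and 45.8% in the whole set. The median of the other 61 genes was 2.86%, and 15 genes had a lower share than mir-71. Genes measured through a single arm are left out, such as mir-64 and mir-81, whose arms averaged 39137 and 38923 normalised reads in N2. No measured microRNA had a mean under 5.65 over the 12 libraries, so a very scarce passenger keeps its gene out of this set. The median and the place of mir-71 hold for the 62 genes only. The lowest shares were those of mir-70 (0.00214%), mir-238 (0.0159%) and mir-82 (0.0171%), and the highest those of mir-358 (45.8%), mir-230 (34.3%) and mir-2208b (30.0%). Of the 62 genes, 22 had the 5p arm as the more abundant one, as mir-71 does.

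The levels of the arms did not follow each other closely across N2 libraries. Over the 6 libraries Pearson's r between log2 miR-71-5p and log2 miR-71-3p was 0.16 (exact permutation p = 0.747) and Spearman's rho 0.14 (p = 0.803). In RPM they were 0.025 (exact permutation p = 0.939) and 0.20 (p = 0.714), and the adjusted p over these 4 tests was 0.939 for each. Without the pair of libraries farthest from the median of miR-71-5p, r was -0.077 for normalised reads and -0.29 for RPM.

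**Figure D2:**
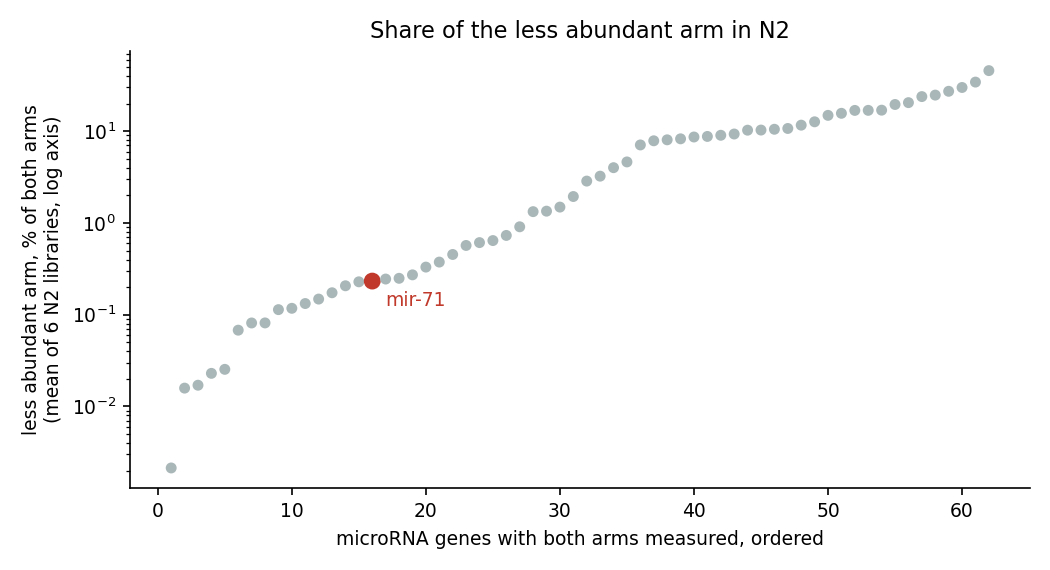
Share of the less abundant arm in the reads of both arms (log axis, mean of the 6 N2 libraries), for the 62 microRNA genes with both arms measured, ordered from lowest to highest. mir-71, in red, has 0.233% and stands in place 16.

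In the deletion mutants the guide strand fell to a trace and the passenger strand was not detected. miR-71-5p had 104, 189 and 166 normalised reads in the mutants at day 5, against 142695, 90221 and 110683 in N2. At day 0 it had 52.5, 139 and 109 in the mutants, against 173431, 155783 and 123352 in N2. Every mutant library lay far below every N2 library. On the log2 scale the mutants stood -9.56 ± 0.43 from N2 at day 5 (SE, adjusted p = 4.11e-11 in limma). The value for day 0 was -10.64 ± 0.43 (limma adjusted p = 7.83e-12), and the difference between the ages was not called. The means were 748-fold lower at day 5 and 1508-fold lower at day 0. In RPM, the mutant means were 0.0996% of the N2 mean at day 5 and 0.0723% at day 0.

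miR-71-3p had 0 reads in each of the 6 mutant libraries, against 165, 490 and 485 reads in N2 at day 5 and 311, 318 and 96 reads in N2 at day 0. Against a floor of 3 reads per library, taken in the mutant library where 3 reads are worth most, miR-71-3p was at least 80.8-fold lower in day 5 mutants than in N2. For day 0 the bound was at least 71.3-fold. In limma its log2 difference was -8.16 ± 0.49 at day 5 (adjusted p = 1.94e-09) and -8.11 ± 0.49 at day 0 (adjusted p = 2.13e-09). The size of these values depends on the 1 that was added before taking logs.

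The mir-71 arms were the only microRNAs called lower in the mutants at either age under the authors' scaling, which makes 0.939% of the 213 tested in each comparison. Of the 211 others, 48 were called higher in the mutants at day 5, or 22.5% of the 213, and 0 were called at day 0 (limma, 5 with an unadjusted p under 0.05). This count depended on single libraries: 1 was called when replicate 1 of the day 5 mutants was left out, 6 without replicate 1 and 3 without replicate 2 of N2 at that age. The most negative other log2 difference was -1.06, for miR-37-5p at day 5, and -0.98, for miR-2208b-3p at day 0. The median log2 difference of the 211 others was 0.98 at day 5 and 0.27 at day 0, and scaling by trimmed mean of log ratios moved it to 0.011 at day 5 and 0.00024 at day 0. Relative to the median under the authors' scaling, miR-71-5p had -10.54 at day 5 and -10.91 at day 0. With the trimmed-mean scaling 15 others were called higher and 14 lower in the mutants at day 5, against 23 and 5 with equal totals, while the replicate block gave 95 higher, or 44.6% of the 213, and 1 lower.

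Loss of mir-71 also changes what the other shares are shares of. In N2 the arms took enough of the reads that taking them out raises the share of every other microRNA by 0.094 on the log2 scale at day 5 and by 0.13 at day 0.

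**Figure D3:**
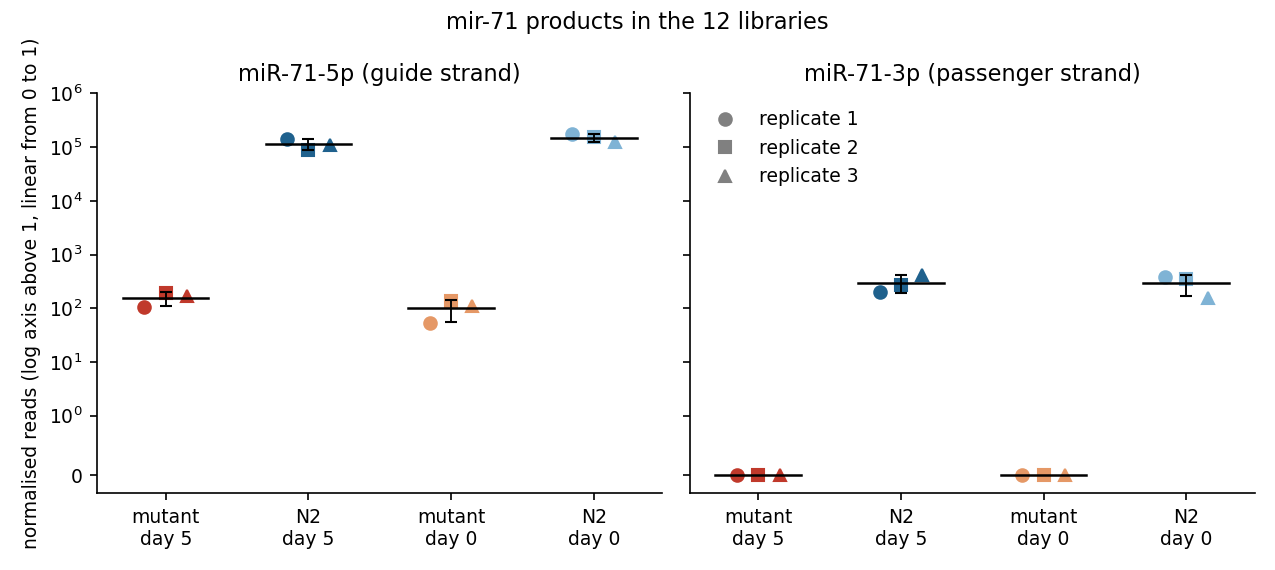
Normalised reads of miR-71-5p (left) and miR-71-3p (right) in each library of the mutants and N2 at day 5 and day 0, on an axis that is logarithmic above 1 and linear from 0 to 1. Horizontal lines are group means and bars are 1 SD (n = 3). All 6 mutant libraries lie below the N2 libraries, at 52.5 to 189 for miR-71-5p and at 0 for miR-71-3p.

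**Figure D4:**
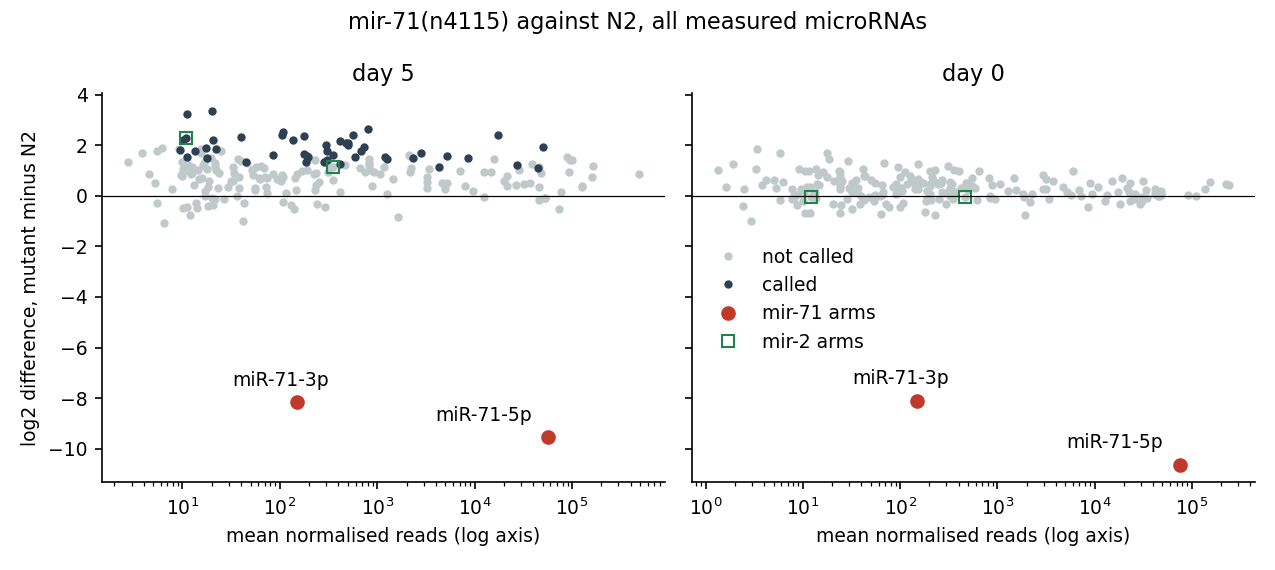
Log2 difference between mutants and N2 (vertical axis) against mean normalised reads of both groups (log axis) for the 213 microRNAs at day 5 (left) and day 0 (right), with calls at a limma adjusted p under 0.05 in dark blue, the mir-71 arms in red and the mir-2 arms in green squares. The mir-71 arms lie between -8.11 and -10.64, and the next lowest microRNA has -1.06 at day 5 and -0.98 at day 0.

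The residual reads in the mutants were few but well above the floor. miR-71-5p was counted 84, 364 and 186 times in replicates 1 to 3 of the mutants at day 5 and 58, 100 and 103 times at day 0, or 895 times in all, where the floor is 3 reads. Its mean of 127 normalised reads over the 6 mutant libraries placed it in position 118 of 213 there. That mean was above the N2 mean of 107 of the 211 other microRNAs. This sets reads beside reads, and where the residual reads came from was not tested. It therefore does not show that the mutants make miR-71-5p at such a level. At the arm ratio of N2, 895 guide reads would come with 2.19 passenger reads over the 6 libraries and with 0.142 to 0.891 in a single one. That number is under the floor of 3 reads, so at this depth the arm ratio of the residual reads could not be measured.

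The residual reads followed the replicate number more than the age, a pattern that was noticed in the values. Replicate 1 of the mutants had 20.6 RPM at day 5 (95% exact Clopper-Pearson interval 16.5 to 25.5) and 17.3 at day 0 (13.2 to 22.4). Replicate 2 had 101 at day 5 (91.0 to 112) and 109 at day 0 (88.7 to 133). Replicate 3 had 66.7 at day 5 (57.5 to 77.0) and 54.7 at day 0 (44.6 to 66.3). The intervals of day 5 and day 0 overlapped within each number, and those of different numbers did not overlap at either age. The highest library had 6.29 times the lowest, while the ratio of day 5 to day 0 within a number was 1.19, 0.927 and 1.22.

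On the log2 scale of RPM plus 1, residual miR-71-5p differed by at most 0.28 between the ages of a number and by 2.41 between the numbers. The medians of the 203 other microRNAs found in all 6 mutant libraries were 1.15 between ages and 0.59 between numbers. The order of the mutant libraries was replicate 2 above 3 above 1 at both ages, as it was for 29 of the 211 other microRNAs (13.7%). For miR-71-5p of N2, replicates 1 to 3 had 67118, 67510 and 54514 RPM at day 5, which is another order, and 74031, 97974 and 78574 RPM at day 0, which is the same order. Depth moved with the residual share in part, replicate 1 having the most mutant reads at each age, 4070663 at day 5 and 3344229 at day 0. The labels do not say what libraries of one number share, and the part of depth or of a shared step in this pattern was not tested.

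**Figure D5:**
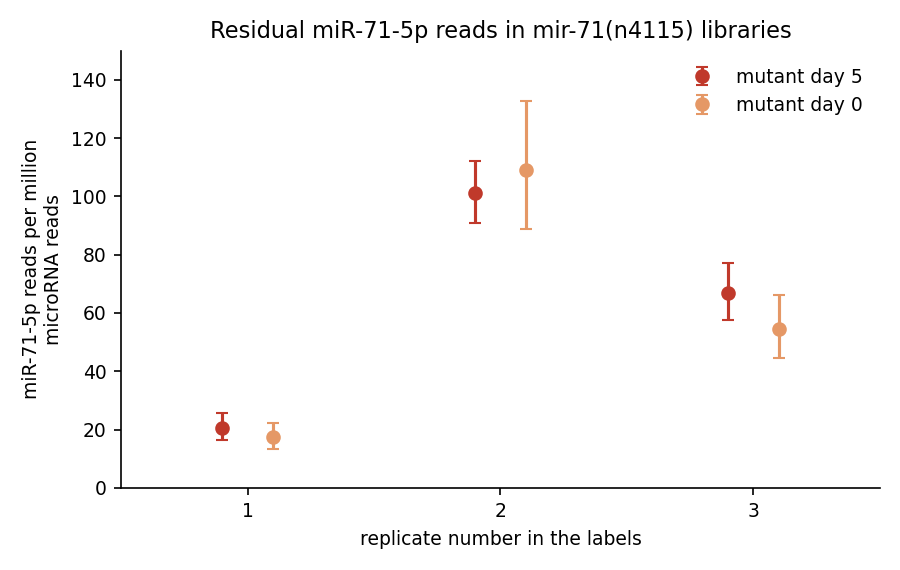
Residual miR-71-5p level in RPM (reads per 1000000 microRNA reads) in the mutant libraries, by replicate number, at day 5 (left point of each pair) and day 0 (right point), with 95% exact Clopper-Pearson intervals that cover counting error only. The replicate 1 libraries lie at 20.6 and 17.3, those of replicate 2 at 101 and 109 and those of replicate 3 at 66.7 and 54.7.

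With age, the level of miR-71-5p in N2 did not pass the test. Its log2 change from day 0 to day 5 was -0.41 ± 0.43 (SE, limma adjusted p = 0.525), where 23.5% of the 213 microRNAs were called in either direction, and the sign was positive when libraries were scaled by trimmed mean of log ratios or by their medians. The median change of the 211 others was -0.49, so relative to the other microRNAs miR-71-5p had 0.083. miR-71-3p had 0.052 ± 0.49 (adjusted p = 0.957), or 0.54 relative to the median. In these whole worms, fewer cells with a microRNA and less of it per cell cannot be told apart. The summed share of the 8 germline and embryo markers, the mir-35 family, was 9.61% to 11.7% of the N2 reads at day 5 and 1.45% to 4.18% at day 0, without overlap. Other markers lay the other way: the muscle marker miR-1-3p took 1.94% to 2.85% at day 5 and 4.77% to 7.60% at day 0. The intestine marker miR-60-3p took 0.0292% to 0.0950% at day 5 and 0.103% to 0.123% at day 0. The 4 neuron markers together took 0.0299% to 0.0526% at day 5 and 0.0844% to 0.126% at day 0. Most of that sum was miR-790-5p, with means of 631 normalised reads at day 5 and 1768 at day 0. The means of lsy-6, miR-124-3p and miR-791-3p were 3.71, 9.28 and 33.4 at day 5. At day 0 they were 13.9, 11.8 and 44.7. In N2 miR-790-5p (limma adjusted p = 0.0199) and lsy-6 (0.0447) were called lower at day 5. miR-124-3p (0.692) and miR-791-3p (0.585) were not called. The muscle, intestine and neuron shares did not overlap between ages either. The glia marker miR-228-5p overlapped, at 1.30% to 1.67% at day 5 and 1.35% to 2.94% at day 0. Of all 213 microRNAs, 37.6% had shares that were lower at day 5 without overlap and 14.1% had shares that were higher. The part of these markers in the age values was not tested.

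As a share of the microRNA reads, miR-71-5p stood at 6.30% ± 0.739 in N2 at day 5 and 8.35% ± 1.27 at day 0 (SD, n = 3 each). Each day 5 library lay below each day 0 library, and the exact two-sided permutation p was 0.1, the smallest that 3 against 3 libraries allow. Such a separation was common, since 37.6% of the 213 microRNAs had shares that were lower at day 5 without overlap, and 14.1% had shares that were higher. miR-71-3p had 0.0169% ± 0.00643 at day 5 and 0.0162% ± 0.00628 at day 0 (exact permutation p = 1). The log2 ratio of guide to passenger averaged 8.62 ± 0.75 at day 5 and 9.08 ± 0.50 at day 0 (exact permutation p = 0.4), with overlapping libraries.

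In the mutants the residual miR-71-5p reads had a log2 change with age of 0.67 ± 0.43 on the authors' scale (limma adjusted p = 0.282, where 13.6% of the 213 microRNAs were called), and 0.39 relative to the median of the others. It was 0.14 with equal totals, 0.061 with totals equal over all microRNAs but mir-71 and the top 5, 0.43 with trimmed mean of log ratios and 0.029 on the deposited log2 values. In shares they stood at 0.00628% ± 0.00404 at day 5 and 0.00604% ± 0.00461 at day 0 (exact permutation p = 0.9). The difference between the age effects of miR-71-5p in mutants and in N2 was 1.08 ± 0.60 (limma adjusted p = 0.497), and between 0.33 and 0.54 under the 4 other scalings and on the deposited log2 values. By that test 0 of the 213 microRNAs, 0%, were called, with 25 at an unadjusted p under 0.05.

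The nearest measured microRNA gene, mir-2, lies in the same intron of ppfr-1, at 9372768 to 9372865 on the minus strand and 7061 bases from mir-71. In many invertebrates mir-71 sits in a cluster with members of the mir-2 family. miR-2-3p, the guide strand, had 677, 357 and 400 normalised reads in the mutants at day 5, against 159, 166 and 340 in N2, and 702, 231 and 489 in the mutants at day 0, against 600, 334 and 429 in N2. At day 5 the mutant libraries all lay above the N2 libraries, and at day 0 they overlapped. Its log2 difference was 1.14 ± 0.48 at day 5 (SE, limma adjusted p = 0.0835, or 0.0261 with the replicate block) and -0.039 ± 0.48 at day 0 (adjusted p = 0.994). Relative to the median of the 211 others the day 5 value was 0.15.

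The passenger miR-2-5p was counted 30, 19 and 11 times in the mutants at day 5 and 2, 2 and 5 times in N2. The N2 counts of 2 lie under the floor of 3 reads. At that age it stood 2.28 ± 0.60 higher in the mutants than in N2 on the log2 scale (limma adjusted p = 0.0174), or 1.30 relative to the median. The call was lost without replicate 1 of the mutants at day 5 (adjusted p = 0.0861) and without replicate 1 (0.0528) or replicate 2 (0.0844) of N2 at day 5. At day 0 it had -0.036 ± 0.60 (adjusted p = 0.994). From day 0 to day 5 miR-2-5p changed by -1.95 ± 0.60 in N2 (limma adjusted p = 0.032) and by 0.37 ± 0.60 in the mutants (0.722). Neither arm of mir-2 was called lower in the mutants at either age. On the other side of mir-71 the nearest measured gene on chromosome I, mir-1817, starts 1489349 bases away, and its log2 differences were 0.75 at day 5 (limma adjusted p = 0.175) and 0.25 at day 0 (0.966).

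Across the 6 N2 libraries the microRNAs whose levels most resembled that of miR-71-5p were miR-80-5p (Pearson's r = 0.963 on log2 normalised reads), miR-86-3p (0.948), miR-358-5p (0.939), miR-87-3p (0.936) and miR-1-5p (0.923), among 158 candidates with a mean of at least 20 normalised reads. The median r of these candidates was 0.57, and all values of a library share its scaling. In RPM the closest were miR-1022-5p (0.955), both arms of mir-241 (0.945 for 5p and 0.944 for 3p), miR-229-3p (0.941) and the guide miR-80-3p (0.939), and 0 of the first 5 were among these. The likeness thus depends on the scaling and is a description of 6 libraries. Those were 3 of day 5 and 3 of day 0, so likeness within an age was not told apart from a shared difference between ages. On the authors' scale, the log2 changes with age in N2 of the first 5 by RPM were -1.14, -1.69, -1.57, -0.87 and -0.23, in that order.

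A list of 8 other microRNAs with a published link to lifespan or stress was set beside mir-71, and was chosen with earlier results of these data known. At day 5, 2 of the 8 were higher in the mutants than in N2 and 0 were lower, where 22.5% of all 213 were called higher. With the replicate block 7 of the 8 were higher, where 44.6% of all 213 were. The 22.5% depends on the libraries named above. The 2 called higher without the block were lin-4-5p, which times larval development, and miR-239b-5p, whose gene acts in the heat-stress response. lin-4-5p had 8240, 4936 and 4703 normalised reads in the mutants at day 5, against 2210, 2557 and 3157 in N2. Its log2 difference was 1.14 ± 0.39 (SE, limma adjusted p = 0.0482), or 0.16 relative to the median, and it was not called under any of the 4 other scalings (adjusted p from 0.352 to 0.783). miR-239b-5p had 37.0, 8.83 and 17.0 normalised reads in the mutants at day 5, against 1.23, 0 and 2.59 in N2 (3.24 ± 0.81, limma adjusted p = 0.0131). Those N2 values lie at or under the floor of 3 reads, so the size of the difference depends on the 1 added before taking logs. Its call was lost without replicate 1 of the mutants or without replicate 1 or 2 of N2 at day 5, when 0 of the 8 were called. The list's median log2 difference was 1.14 at day 5, against 0.98 for the 211 others. At day 0, 0 of the 8 were called, and the medians were 0.29 for the list and 0.27 for the others. The choice of arm matters for some genes. At day 5 miR-239a-3p was not called (0.65 ± 0.50, limma adjusted p = 0.211). Of the arms left out, miR-239a-5p (2.53 ± 0.72, limma adjusted p = 0.022) and miR-228-3p (1.33 ± 0.44, 0.0418) were called higher in the mutants then, under the authors' scaling. The left-out arms miR-34-3p, miR-238-5p, miR-246-5p and miR-80-5p were not called.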

How the data were processed

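The submitters' processing notes name STAR 2.4.0h, DESeq2 and the build WBcel235; how reads were counted is not stated there. One file deposited by the authors holds normalised signal (read counts after scaling) for 213 microRNAs in 12 libraries, and a second deposited file holds a log2 version whose transformation is not stated, used here only as an alternative. Values of a library proved to be multiples of a single step (100% of them to within 0.001), which was read as 1 count; no label states this, and read numbers, floors and intervals depend on it. Groups and replicate numbers came from the sample titles.

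Main tests used log2(value + 1), on which fold changes of scarce microRNAs are understated, after a filter at a mean of 5 that removed 0 microRNAs, in limma 3.58.1 (R 4.3.3) with 4 group means, an intensity trend and Benjamini-Hochberg adjustment over all microRNAs, two-sided, with calls under 0.05. Shares and arm ratios were compared by exact permutation (scipy 1.17.1). The procedure was tested on simulated data that held no library-wide shifts of level and no pairing by replicate number, so that test does not cover either. The members and lists were chosen with earlier results of these data known. Beside the mir-71 arms, the rule named their neighbours in the N2 order, the 5 most similar microRNAs, the extremes of the arm shares, the nearest measured genes and the lifespan list; a comparison of sequences was not made. Libraries with the same number deviated together between strains, with correlations of 0.248 to 0.569 at day 0 and 0.339 to 0.472 at day 5. They also did so between ages in the mutants (0.111 to 0.37). This pairing was seen in the data and is not stated by the labels. The main tests left it out, and it entered only as the replicate block among the alternatives. Alternatives covered the pseudocount, the filter, scaling, the log2 table, the groups fitted, the trend, a replicate block and leaving out each library.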

Additional observations from a re-analysis of the deposited data

How the results depend on the processing

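Under all 24 alternatives the mir-71 arms stayed lower in the mutants and past the threshold at both ages. The log2 difference of miR-71-5p ran from -10.54 to -3.98 at day 5 and from -10.99 to -4.31 at day 0, and that of miR-71-3p from -9.16 to -3.54 and from -9.11 to -3.44. The smallest sizes came from the deposited log2 values, whose transformation is not stated and which may not be on the same scale as the rest. With 1 library left out, miR-71-5p had -9.73 to -9.30 at day 5 and -10.93 to -10.24 at day 0, and miR-71-3p -8.41 to -7.89 and -8.53 to -7.87. The replicate block changed none of these calls, nor those on age.

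Some age values changed sign with the setting. In N2, miR-71-5p had 0.046 with trimmed mean of log ratios and 0.074 with library medians, and -0.58 to -0.25 with 1 library left out. miR-71-3p had -0.0082 when totals were equalised over all microRNAs but mir-71 and the top 5, and -0.37 to 0.30 with 1 library left out, being negative when replicate 3 of either N2 age was dropped. With 1 library left out, its share in percent, day 5 minus day 0, ran from -0.00246 to 0.00446, that of residual miR-71-5p in the mutants from -0.00190 to 0.00268, that of miR-71-5p in N2 from -2.52 to -1.33, and the log2 arm ratio from -0.88 to -0.17. The residual miR-71-5p change ran from 0.27 to 0.96 and the difference between the age effects from 0.68 to 1.37. Over the other settings they ran from 0.029 to 0.68 and from 0.33 to 1.09, all positive. Libraries of N2 shared only a number between ages: 0 of 6 correlated best with their own number, and the replicate block called 60 microRNAs lower at day 5, against 34 without it. Between strains 48 microRNAs were called higher at day 5, a count that became 1 when day 5 mutant replicate 1 was dropped, 6 when day 5 N2 replicate 1 was dropped and 3 when day 5 N2 replicate 2 was dropped. It was 23, 18, 15 and 15 under the 4 other scalings. The cause of these changes was not tested.

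Depth limits the passenger strand in the mutants, where 0 reads allow up to 0.737 to 3.27 RPM by library.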
